A study of Mus musculus with 20 samples.

Results

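A set of imprinted genes was measured in the inguinal white adipose tissue (iWAT) of female mice, a fat pad under the skin of the groin. A list of 42 genes that are imprinted in mice was matched by symbol to 36611 annotated genes, and 41 were found. *Kcnq1ot1* has no entry in the annotation used and was not analysed here. A mean of at least 0.5 TPM (transcript abundance per transcript length, scaled to a fixed total in each library) over all libraries was reached by 33 of the 41, as by 15574 genes in all.

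An imprinted gene is read mainly from the copy inherited from 1 parent, because marks set in the egg or the sperm, often DNA methylation, differ between the copies. Such genes lie in clusters that share a control region, and many act on growth, on the placenta and on the size of fat stores. *H19*, a long non-coding RNA read from the maternal copy, and *Igf2*, a growth factor read from the paternal copy, share enhancers at the end of mouse chromosome 7, and binding of the insulator protein CTCF between them on the maternal copy keeps these enhancers from *Igf2*. Both genes are high in the fetus and low in most adult tissues. The values below sum both parental copies, which were not told apart. The parental copy named for a gene is the one listed for mice, and whether it holds in this tissue was not measured.

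RNA was sequenced from 20 mice in 4 groups of 5. The mice were females of strain C57BL/6, 6 months old, given a diet with 10.5% fat (LFD) or 58% fat (HFD) for 15 weeks. All of them were homozygous for a *Tmem120a* allele with loxP sites around exons 2 and 3 (*Tmem120a* fl/fl). Knockout mice (*Ad-Tmem120a*-/-) also carried the Adipoq-Cre transgene, which is driven by the adiponectin promoter and acts in adipocytes, so that the other cells of the fat pad keep the gene. Controls were littermates without Cre and are called wild type in the labels. The Cre transgene and the loss of *Tmem120a* cannot be told apart in these groups.

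The libraries held 54605101 to 92387737 estimated counts each. *Tmem120a*, which encodes a protein of the nuclear envelope, had 57.9 to 196 TPM in control mice and 21.5 to 89.7 TPM in knockout mice, and was 3.13-fold lower in knockout mice over both diets (log2 fold change −1.64 ± 0.24 SE, edgeR adjusted p = 0.00452). All 14 markers of white adipocytes were above the 0.5 TPM minimum, and their summed level lay between 16970 and 35440 TPM. A list of 28 genes of skeletal muscle fibres ranged more widely, from 57.9 to 4760 TPM in sum, and stands beside the results for *H19* below. In bulk tissue, fewer cells of a type and less RNA per cell cannot be told apart. The p-values measure the spread between mice of a group.

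Levels per transcript length spanned several orders of magnitude among the imprinted genes. *Cd81*, a tetraspanin of the cell surface, was highest with a mean of 358 TPM over all libraries (range 164 to 593), followed by *Nnat*, a small membrane protein of the endoplasmic reticulum, with 298 TPM (67.3 to 577), and *Gnas*, the stimulatory G protein subunit that couples receptors to cyclic AMP, with 277 TPM (190 to 345). The ranges of these 3 genes overlap. *Ube3a*, a ubiquitin ligase, reached 87.1 TPM and *Peg3*, a zinc finger protein, 43.5 TPM. *H19* (8.37 TPM, range 3.10 to 28.1) and *Igf2* (1.65 TPM, range 0.585 to 3.10) were far lower. *Dlk1*, an inhibitor of fat cell differentiation that marks preadipocytes, had a mean of 0.524 TPM and at most 82 counts in a library. The 8 genes under 0.5 TPM were *Usp29*, *Phlda2*, *Peg10*, *Asb4*, *Magel2*, *Mkrn3*, *Zdbf2* and *Ascl2*, with means between 0.0039 TPM for *Magel2* and 0.444 TPM for *Mkrn3*. *Mkrn3* passed the minimum in the pairwise comparisons that include knockout mice on HFD, between genotypes on HFD and between diets in knockout mice, and is counted in those.

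*H19* lies on the minus strand at chr7:149761434-149764048 and *Igf2* on the same strand at chr7:149836673-149852721 (build NCBIM37, also called mm9). The 72624 bases between them hold the imprinting control region, and its CTCF sites are shown because they are what ties the pair together. The 14-letter core CCGCGNGGNGGCAG was searched on both strands and found 3 times between the genes, 2166, 2621 and 3891 bases upstream of the start of *H19*. It was found in 0.0219% of the 36605 windows of 300 bases around gene starts and in none of those of the 41 imprinted genes. The core is in capitals in these 30 bases, given on the minus strand from chr7:149766206-149766235, chr7:149766661-149766690 and chr7:149767931-149767960.
CTCF site 1: agacgatgCCGCGTGGTGGCAGtacaatac
CTCF site 2: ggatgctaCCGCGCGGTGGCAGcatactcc
CTCF site 3: gggagttgCCGCGTGGTGGCAGcaaaatcg

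The windows around the starts of *H19* and *Igf2*, 250 bases before to 50 after, are shown because the genes share enhancers and their levels are compared below (minus strand, chr7:149763999-149764298 and chr7:149843352-149843651, the latter for the *Igf2* transcript ENSMUST00000000033). The capitals in the *H19* window mark GGGGCCCC, the letters bound by the zinc finger protein Plagl1, itself the product of an imprinted gene, 107 bases before the start. These letters, read on both strands, occur in 1.01% of all windows and in 3 of the 41 for imprinted genes (*H19*, *Peg3* and *Rasgrf1*), and a match is not a binding site. The TATA box letters TATAAA were in 16.2% of all windows and in 8 of the 41, and the YY1 core GCCATNTT in 6.86% and in 3 of the 41.
H19 start: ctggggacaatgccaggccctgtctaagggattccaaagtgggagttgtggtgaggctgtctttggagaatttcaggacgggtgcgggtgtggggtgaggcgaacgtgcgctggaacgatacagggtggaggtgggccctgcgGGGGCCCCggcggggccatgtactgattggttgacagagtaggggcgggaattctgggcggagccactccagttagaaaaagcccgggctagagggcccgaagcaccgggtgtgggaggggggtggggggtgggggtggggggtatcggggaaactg
Igf2 start: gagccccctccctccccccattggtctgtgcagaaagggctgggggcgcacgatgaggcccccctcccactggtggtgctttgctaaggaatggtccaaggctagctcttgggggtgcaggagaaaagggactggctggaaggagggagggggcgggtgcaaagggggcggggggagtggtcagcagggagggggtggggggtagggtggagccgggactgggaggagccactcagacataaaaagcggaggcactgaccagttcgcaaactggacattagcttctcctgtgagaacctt

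The first of the 5 exons of *H19* holds the hairpin of miR-675 (chr7:149762969-149763052, minus strand), whose mature forms are shown because they are cut from *H19*. The *Mir675* entry was listed at 0 in all libraries, which were made from total RNA and do not measure mature miRNAs. The sequences are from RefSeq (build GRCm38.p6), with the seed, bases 2 to 8, in capitals.
miR-675-5p: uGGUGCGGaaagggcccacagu
miR-675-3p: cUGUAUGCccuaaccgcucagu

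The question put to the pair was whether *H19* moves with *Igf2* when the diet or the genotype changes. *H19* was highest in knockout mice on HFD, where all mice lay above all controls on the same diet, while the *Igf2* levels of the groups overlapped. In control mice on LFD *H19* stood at 5.98, 4.13, 5.51, 8.90 and 8.66 TPM, and in knockout mice on LFD at 5.60, 5.10, 3.59, 16.1 and 7.26 TPM. These groups overlap, and 1 knockout mouse is above the rest. In control mice on HFD *H19* stood at 5.09, 4.09, 3.10, 3.86 and 5.04 TPM, and in knockout mice on HFD at 12.5, 10.8, 16.3, 28.1 and 7.79 TPM. The lowest knockout mouse on HFD was above the highest control on HFD, and 1 of the 5 exceeded every other library of the series.

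*Igf2* stood at 1.62, 1.48, 1.01, 0.585 and 1.89 TPM in control mice on LFD and at 1.46, 1.27, 1.54, 2.21 and 1.42 TPM in knockout mice on LFD. On HFD it stood at 1.69, 1.64, 1.80, 1.82 and 3.10 TPM in control mice and at 0.975, 2.64, 2.19, 1.53 and 1.25 TPM in knockout mice. The groups overlap in all 4 comparisons, and the mouse with the highest *H19* had an *Igf2* level in the middle of its group.

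**Figure D1:**
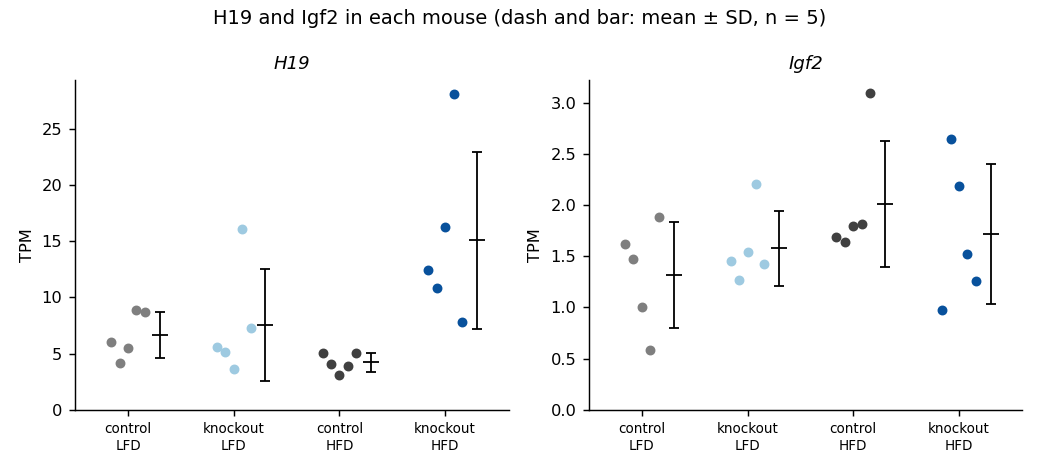
Level of *H19* and *Igf2* in TPM for each mouse (points) by group, with the mean and SD of 5 mice (dash and bar). The 5 knockout mice on HFD sit between 7.79 and 28.1 TPM of *H19*, above the control mice on HFD (3.10 to 5.09 TPM), while the *Igf2* levels of all 4 groups overlap.

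Levels were tested as log2(TPM + 1) by two-sided exact permutation over all assignments of 5 mice against 5, with p adjusted over 12 tests (*H19*, *Igf2* and their ratio in 4 comparisons). The smallest p this design allows is 0.00794. The pair and the tests were chosen with earlier results of these data known, which the adjustment over 12 tests does not cover. The edgeR fit across all genes, given below, did not call *H19* between genotypes. On HFD *H19* was higher in knockout mice by 1.51 on this scale (exact permutation p = 0.00794, adjusted 0.0476), and the log2 ratio of *H19* to *Igf2* by 1.67 (exact permutation p = 0.00794, adjusted 0.0476). *Igf2* differed by −0.16 (exact permutation p = 0.444, adjusted 0.593). On LFD the knockout difference was 0.05 for *H19* (exact permutation p = 0.913), 0.18 for *Igf2* (p = 0.389 by the same exact test) and −0.13 for the ratio (p = 0.730 by the same exact test). The genotype differences on the 2 diets were then set against each other directly. The genotype difference on HFD minus that on LFD was 1.47 for *H19* (exact permutation p = 0.0256, adjusted over 3 tests 0.0384), −0.34 for *Igf2* (exact permutation p = 0.208) and 1.81 for the ratio (exact permutation p = 0.00901, adjusted 0.027). Here the genotypes were permuted within each diet, so the p refers to the case of no genotype difference on either diet. It does not test equal, nonzero differences on both diets. This test of the difference was added after the data were seen.

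Between diets *H19* differed in opposite directions in the 2 genotypes. In control mice it was lower on HFD by 0.52 on the log2(TPM + 1) scale (second minus first −0.52, exact permutation p = 0.0397, adjusted 0.119), and in knockout mice higher by 0.95 (exact permutation p = 0.0635, adjusted 0.127). Neither passed an adjusted 0.05. Genes of skeletal muscle fibres were also lower on HFD in control mice, as given with the muscle markers. *Igf2* differed between diets by 0.39 in control mice (exact permutation p = 0.0794, adjusted 0.136) and by 0.05 in knockout mice (exact permutation p = 0.794). The ratio differed by −0.91 in control mice (exact permutation p = 0.0159, adjusted 0.0635) and by 0.90 in knockout mice (exact permutation p = 0.0635).

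The fit across all genes used edgeR's quasi-likelihood test on counts summed per gene, with Benjamini-Hochberg adjustment, and called a gene at an adjusted p under 0.1. In this fit *H19* was not called between genotypes on HFD, with a log2 fold change of 1.72 ± 0.32 SE, a 3.29-fold difference, and an edgeR adjusted p of 0.178. Over the alternatives run, its adjusted p ran from 1.1e-05 (DESeq2 with offsets for transcript length) to 0.25 (limma on log2(TPM + 1)), and it was called by DESeq2, by edgeR's newer method (adjusted p = 0.0583) and without the filter on low genes (edgeR adjusted p = 0.0684). Without knockout HFD mouse 21, the lowest of its group, edgeR called *H19* (adjusted p = 0.024) and 58 genes in place of 1. The edgeR difference between the genotype effects on HFD and on LFD was 2.06 ± 0.47 SE (adjusted p = 0.976), while DESeq2 called it (adjusted p = 0.0191) and DESeq2 with length offsets did not. Between diets edgeR called *H19* in knockout mice (1.30 ± 0.36 SE, adjusted p = 0.0554), a call that was lost with length offsets (0.89, adjusted p = 0.309), and in control mice the change of −0.78 ± 0.26 SE missed it (adjusted p = 0.108).

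The count fit and the TPM values gave opposite signs for *H19* between genotypes on LFD, −0.36 ± 0.31 SE in edgeR against 0.05 on the log2(TPM + 1) scale, neither past its test. The gene sum combines several transcripts, whose levels were not tested one by one. The transcript ENSMUST00000136359, which holds 75.4% of the summed *H19* TPM, was at 5.90 ± 2.62 TPM (SD, n = 5) in control mice and 3.87 ± 1.31 TPM in knockout mice on LFD, whereas ENSMUST00000140716, with 21.4% of the sum, was at 0.736 ± 1.40 and 3.41 ± 5.22 TPM. On HFD their means were 11.6 ± 6.75 TPM in knockout mice against 3.88 ± 0.574 TPM in control mice for the first and 2.70 ± 2.65 against 0.323 ± 0.581 TPM for the second.

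Skeletal muscle is among the adult tissues that keep *H19*, and the summed level of genes of its fibres was also higher in knockout mice on HFD, although edgeR called none of these genes. All 28 listed fibre genes were found, 25 with a mean of at least 0.5 TPM and none at 0 throughout. Their sum lay between 81.6 and 4760 TPM in control mice on LFD, 79.9 and 1518 on LFD in knockout mice, 57.9 and 142 in control mice on HFD and 136 and 2078 in knockout mice on HFD. On HFD it was higher in knockout mice by 3.11 on the log2 scale (exact permutation p = 0.0159, adjusted over 40 list tests 0.0907), with 28 of 28 genes higher. The edgeR fit called 0 of the 25 tested (median log2 fold change 4.23), in a comparison where it called 1 of all 15228 genes. Calls of fibre genes were not counted under the alternatives that called *H19*. Between diets in control mice the sum was lower on HFD by 1.99 (difference −1.99, exact permutation p = 0.0635, adjusted 0.212), with 0 of 28 genes higher and 15 of 25 called down by edgeR (median −4.77), in the comparison where *H19* was also lower. In knockout mice it differed between diets by 0.87 (exact permutation p = 0.405), with 0 called. Markers of embryonic and satellite muscle cells were low. Of 11, 10 were found, 0 reached a mean of 0.5 TPM, *Chrng* was at 0 in all libraries, and their sum stayed under 1.84 TPM. Knockout HFD mouse 21 had a fibre sum of 136 TPM, inside the range of control mice on HFD, and 7.79 TPM of *H19*, above all of those controls. Both values were the lowest of its group. Knockout LFD mouse 9 had the highest fibre sum (1518 TPM) and the highest *H19* (16.1 TPM) of its group. Control LFD mouse 5 had the highest fibre sum of the series, 4760 TPM, and 8.66 TPM of *H19*, where the highest of its group was 8.90 TPM. Over the 20 libraries, after subtracting group means, *H19* and the fibre sum had r = 0.53 (permutation p = 0.0361, adjusted over 20 relations 0.416) and rho = 0.48 (permutation p = 0.0662, adjusted 0.302), and r = 0.59 without the 2 libraries farthest from the median sum. This relation was added after the data were seen. The part of muscle RNA in the *H19* difference was not tested.

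**Figure D2:**
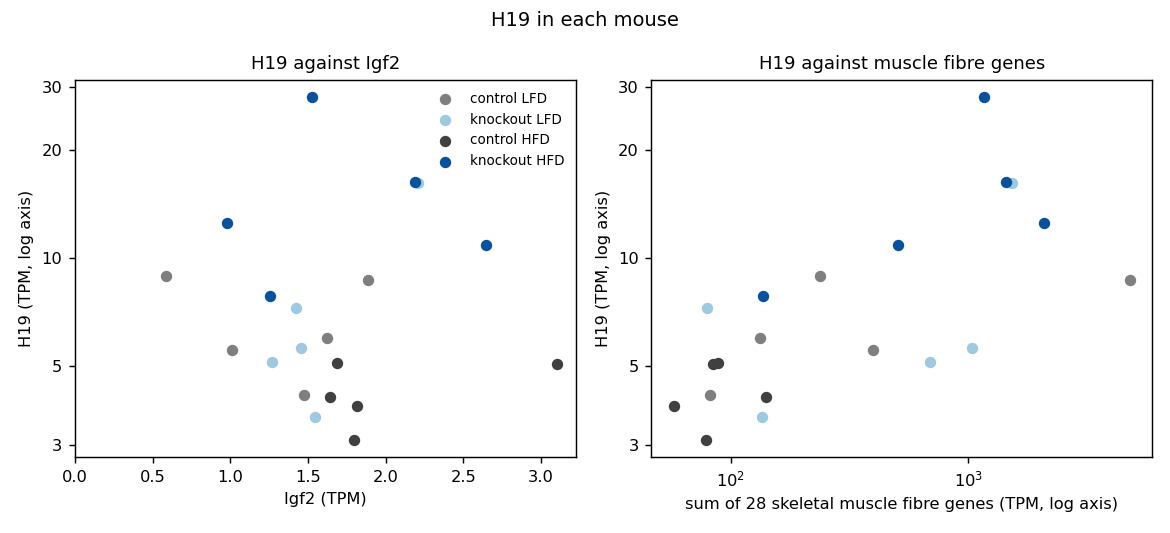
*H19* in TPM (log axis) for each mouse against *Igf2* in TPM (left) and against the summed TPM of 28 skeletal muscle fibre genes (right, log axis), coloured by group. The knockout mice on HFD lie above the control mice on HFD, at *Igf2* levels from 0.975 to 2.64 TPM, and 4 of the 5 have fibre sums above those of the control mice on HFD.

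From mouse to mouse, no relation of *H19* with *Igf2* passed the test. After subtracting group means, log2(TPM + 1) of the pair had r = 0.19 (permutation p = 0.448) and rho = 0.20 (permutation p = 0.440) over 20 libraries, and r = 0.21 without the 2 libraries farthest from the median *H19*, knockout HFD mice 19 and 20. Within groups r was −0.24 and 0.81 in control and knockout mice on LFD and 0.44 and 0.08 on HFD, each over 5 mice. Each of the other 32 imprinted genes above the 0.5 TPM minimum was set against it in this way, and none passed an adjusted 0.05. The lowest adjusted p was 0.170 for Pearson's r and 0.248 for Spearman's rho by permutation. The number at a permutation p under 0.05 before adjustment was 8 for r and 3 for rho. The share of all genes at such a p was not computed, so these numbers are not a result about imprinted genes as a group. The largest correlations among the imprinted genes were negative. They were with *Cd81* (r = −0.73, permutation p = 0.00877, rho = −0.60), *Gnas* (r = −0.65, permutation p = 0.0187, rho = −0.42) and *Ndn*, a protein that restrains cell division (r = −0.59, permutation p = 0.0364, rho = −0.44). The largest positive one was with *Slc38a4*, an amino acid transporter (r = 0.57, permutation p = 0.0293, rho = 0.46). On log2 counts per library total r was −0.42 for *Cd81*, −0.35 for *Gnas*, −0.31 for *Ndn* and 0.64 for *Slc38a4*. Knockout LFD mouse 9 had at once a high *H19* (16.1 TPM) and the lowest *Cd81* of the series (164 TPM), and leaving out single libraries moved r with *Cd81* between −0.85 and −0.58. Without control LFD mouse 5, *Igf2r* passed the adjusted 0.05. With group means left in, *Slc38a4* did.

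Among all 15573 other genes above the minimum, the 10 most like *H19* over the 20 libraries, by the same r and as a description, were *1110020G09Rik* (r = 0.83), *RP24-82B18.2* (0.81), *Bex4* (0.78), *Zfp184* (0.78), *Znrd1as* (0.77), *SCARNA11* (0.75), *Ndufc1* (0.75), *Gm15421* (0.73), *Creb3l4* (0.72) and *Acadl* (0.72). *Slc38a4* ranked 139, *Zrsr1* 510 and *Igf2* 2794 in this order. Libraries share their depth and tissue makeup across all these genes.

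The genes within 300 kb of *H19* include a pair of muscle genes. *Tnnt3* and *Tnni2*, troponins of fast muscle fibres, lie 59520 and 131119 bases from *H19* on its 3′ side. On HFD they were higher in knockout mice by 6.09 and 5.39 on the log2 scale, without a call (edgeR adjusted p = 0.202 and 0.189), and between diets they fell in control mice by 6.15 and 5.72 (edgeR adjusted p = 0.0626 and 0.0587). *Tnnt3* had means of 307 ± 609 TPM (SD, n = 5) and 4.71 ± 7.72 TPM in control mice on LFD and HFD, and 188 ± 214 and 331 ± 259 TPM in knockout mice. *Lsp1*, a leukocyte protein that lies between these troponins, was at 124 ± 27.1 TPM in control mice and 130 ± 26.6 TPM in knockout mice on HFD. *Nctc1*, the non-coding RNA nearest to *H19*, was low in every group and was not tested. It was at 0 TPM in control mice and 0.541 ± 0.441 TPM in knockout mice on HFD. On LFD it was at 0.499 ± 0.982 and 0.239 ± 0.270 TPM in these genotypes. *Ins2* and the antisense RNA *Igf2as*, on the *Igf2* side, were at or near 0.

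Imprinted genes were called between diets in both genotypes, and *Peg3* had the largest change among the 42 listed. Over both genotypes, 10 of 33 tested were called, 7 up and 3 down, which is 30.3% beside 25.2% of all 15574 genes tested. In control mice 4 of 31 were called, 2 up and 2 down, 12.9% beside 9.32% of all genes, and in knockout mice 6 of 34, 5 up and 1 down, 17.6% beside 9.4%. These shares are near those of all genes and are not a result about imprinted genes as a group. The median log2 fold change of the imprinted genes was 0.07 in control mice and 0.23 in knockout mice, where that of all genes tested was −0.04 and 0.00. Genes listed as read from the maternal copy gave 2 calls of 17 in control mice and 2 of 17 in knockout mice, and those listed as read from the paternal copy 2 of 13 and 4 of 16. Limma on log2(TPM + 1) shifted the median of all genes in control mice to 0.13 and called mostly rises, 83.7% of its calls against 47.4% in edgeR, and called 5 imprinted genes there, 4 of them up. In knockout mice 65.8% of its calls were rises against 48.4% in edgeR, and over both genotypes 75.0% against 49.7%, with 12 of 13 imprinted genes up.

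*Peg3*, a zinc finger protein of the paternal copy that controls growth and maternal behaviour in mice, lies at chr7:6656603-6683132 on the minus strand. It stood at 25.8, 13, 13.5, 14.8 and 32.9 TPM in control mice on LFD and at 48.1, 89.0, 83.3, 98.7 and 71.8 TPM on HFD. In knockout mice it stood at 10.3, 9.27, 12.6, 23.3 and 26.9 TPM on LFD and at 60.4, 64.2, 85.7, 21.7 and 65.0 TPM on HFD. The diets do not overlap in control mice, and in knockout mice 1 of 5 HFD mice falls within the LFD range. *Peg3* rose on HFD 3.55-fold in control mice (log2 fold change 1.83 ± 0.30 SE, edgeR adjusted p = 0.00713) and 3.43-fold in knockout mice (1.78 ± 0.41 SE, edgeR adjusted p = 0.0276). It was called in both genotypes under every alternative and without each library in turn, with an adjusted p of at most 0.0783. Between genotypes it differed by −0.38 ± 0.31 SE on HFD, without a call (edgeR adjusted p = 0.999).

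The window around the start of *Peg3* (chr7:6683083-6683382, minus strand, transcript ENSMUST00000051209) is shown because *Peg3* had the largest change between diets among the 42 listed genes. It holds GGGGCCCC, in capitals, 199 bases before the start, as the *H19* window does at 107.
Peg3 start: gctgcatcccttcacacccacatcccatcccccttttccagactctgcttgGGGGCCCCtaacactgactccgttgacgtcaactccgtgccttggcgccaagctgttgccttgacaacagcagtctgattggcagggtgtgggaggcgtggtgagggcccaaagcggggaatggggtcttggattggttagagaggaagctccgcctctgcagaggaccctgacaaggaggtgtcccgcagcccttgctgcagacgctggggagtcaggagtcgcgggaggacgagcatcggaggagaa

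The other genes of the cluster, *Zim1*, a zinc finger gene read from the maternal copy, and *Usp29*, read from the paternal copy, were low. *Zim1* had a mean of 2.79 TPM and was not called between diets, and *Usp29* stayed at or under 0.121 TPM in all libraries.

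*Cdkn1c*, *Grb10* and *Igf2r*, which act on the cell cycle or on growth factor signalling, were each called between diets over both genotypes. *Cdkn1c*, an inhibitor of cyclin-dependent kinases, stood at 13, 8.77, 6.29, 8.18 and 12.7 TPM on LFD and at 5.39, 6.25, 5.55, 7.83 and 5.37 TPM on HFD in control mice, and fell by 0.83 ± 0.19 SE on the log2 scale (edgeR adjusted p = 0.0333). The diets overlap, and in knockout mice the LFD and HFD ranges, 7.02 to 10.2 and 5.05 to 9.75 TPM, nearly coincide. *Grb10*, an adaptor that dampens signalling of the insulin and IGF receptors, stood at 15.9, 14.5, 18.3, 18.8 and 15.8 TPM on LFD and at 21, 23.2, 22.5, 22.8 and 25.8 TPM on HFD in knockout mice. It rose 1.36-fold there (0.44 ± 0.11 SE, edgeR adjusted p = 0.0441), without overlap between diets, while its ranges in control mice, 14.5 to 22.6 and 17.5 to 23.0 TPM, overlap. Over both genotypes *Igf2r*, the receptor that removes Igf2 from the surroundings of the cell, rose 1.17-fold (0.23 ± 0.08 SE, edgeR adjusted p = 0.0595), with 11 to 19.7 TPM on LFD and 14.1 to 22.9 TPM on HFD.

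*Airn*, the non-coding RNA that silences *Igf2r* on the paternal copy, went the other way. It stood at 19.1, 18.1, 19, 37.2 and 21 TPM on LFD and at 13.9, 24.7, 11.5, 13.4 and 14.9 TPM on HFD in knockout mice. It fell there by 0.68 ± 0.21 SE on the log2 scale (edgeR adjusted p = 0.0886), and over both genotypes by 0.66 ± 0.18 SE (edgeR adjusted p = 0.0141). In knockout mice a single HFD mouse lies within the LFD range. In control mice, with 7 to 26.6 TPM on LFD and 7.95 to 13.3 TPM on HFD, all HFD mice do. *Airn* overlaps *Igf2r* on the opposite strand, and the libraries keep the strand, but whether the counting used it is not given in the sources used here, so reads of these partners may be mixed. The same holds for *Nnat* with *Blcap* and for *Zrsr1* with *Commd1*.

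*Slc38a4*, the amino acid transporter, stood at 1.65, 1.98, 2.68, 3.19 and 3.66 TPM on LFD and at 1.83, 1.68, 2.44, 1.20 and 0.983 TPM on HFD in control mice. It fell there by 0.99 ± 0.27 SE on the log2 scale (edgeR adjusted p = 0.0621), with overlap. In knockout mice the diets, at 2.29 to 6.28 and 2.04 to 3.82 TPM, were not called apart. *Cd81* stood at 325, 345, 269, 303 and 330 TPM on LFD and at 467, 496, 481, 425 and 464 TPM on HFD in control mice, and rose 1.34-fold without overlap (0.42 ± 0.11 SE, edgeR adjusted p = 0.0456). In knockout mice it ranged from 164 to 346 TPM on LFD and from 286 to 593 TPM on HFD, without a call (edgeR adjusted p = 0.164).

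*Impact*, a regulator of the response of translation to amino acid lack, and *Sgce*, a sarcoglycan of the cell membrane, rose on HFD in knockout mice. *Impact* stood at 22.3, 19.3, 22.0, 15.6 and 19.6 TPM on LFD and at 23.2, 33.1, 31.3, 31.3 and 36.6 TPM on HFD, a 1.43-fold rise without overlap (0.51 ± 0.14 SE, edgeR adjusted p = 0.0571). *Sgce* stood at 31.0, 32.8, 35.0, 32.5 and 46.0 TPM on LFD and at 51.1, 53.3, 66.2, 44.1 and 59.0 TPM on HFD, also 1.43-fold higher (0.52 ± 0.17 SE, edgeR adjusted p = 0.0997), with overlap of 1 mouse on each diet. *Peg10*, which shares its cluster with *Sgce*, stayed at or under 1.04 TPM. *Snrpn*, a protein of the splicing machinery, ranged from 4.37 to 9.22 TPM on LFD and from 7.02 to 15.2 TPM on HFD, and rose 1.30-fold over both genotypes (0.38 ± 0.12 SE, edgeR adjusted p = 0.0333). *Nnat* ranged from 67.3 to 389 TPM on LFD and from 304 to 577 TPM on HFD in control mice and was not called (0.57 ± 0.34 SE, edgeR adjusted p = 0.377).

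**Figure D3:**
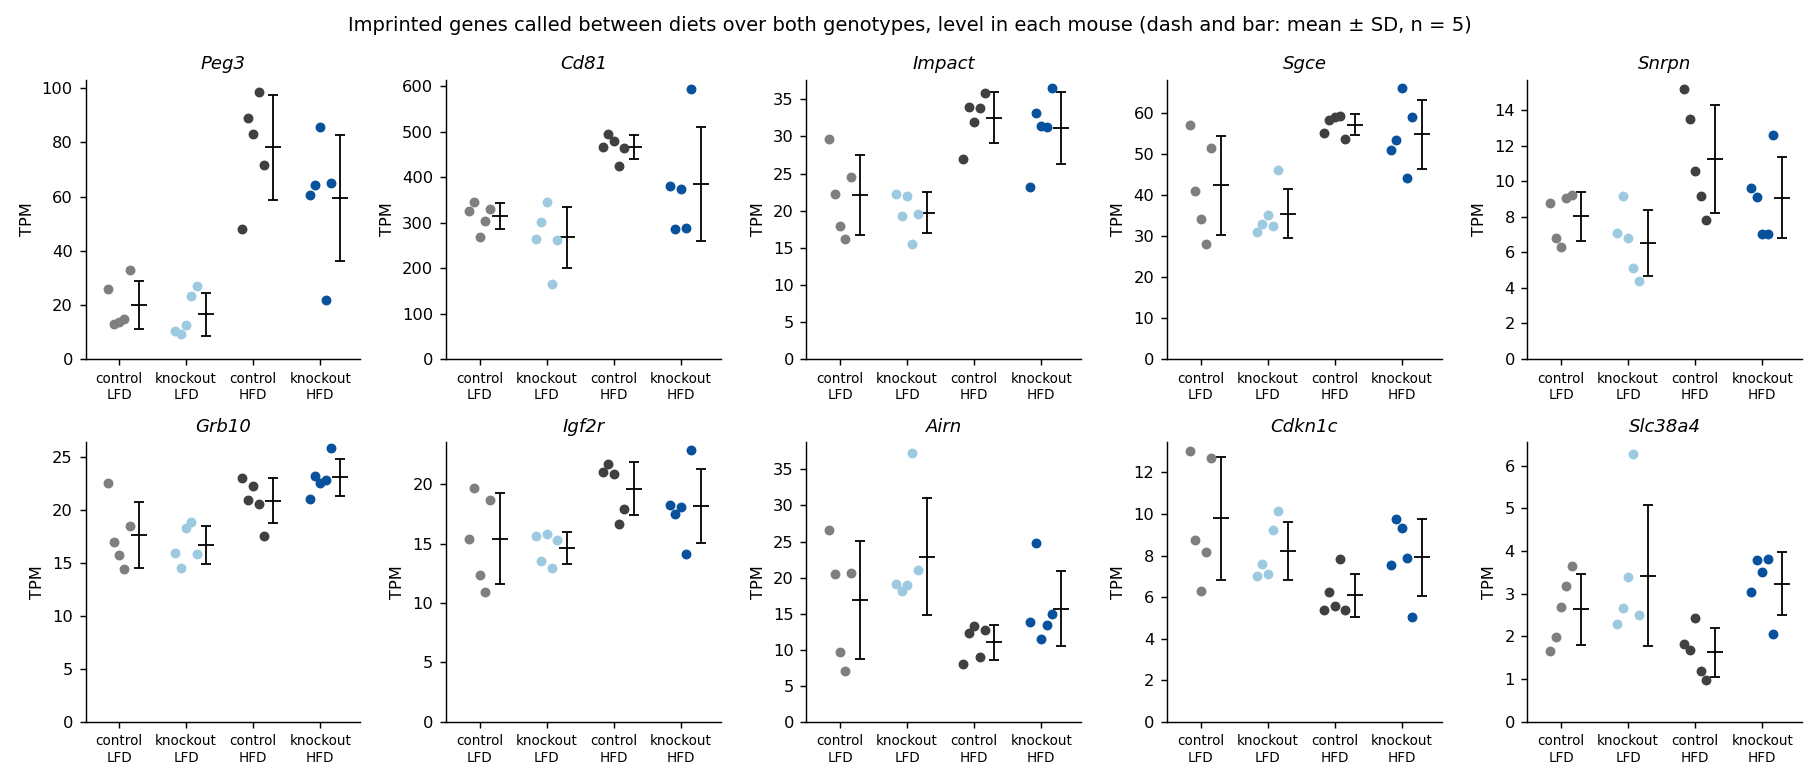
Level in TPM of the 10 imprinted genes called between diets over both genotypes, for each mouse (points) by group, with the mean and SD of 5 mice (dash and bar). *Peg3* rises from 9.27 to 32.9 TPM on LFD to 21.7 to 98.7 TPM on HFD, and *Cdkn1c* in control mice goes from 6.29 to 13 TPM down to 5.37 to 7.83 TPM.

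Most of these diet calls rest on the full set of mice. Without single libraries, *Cdkn1c* stayed called in control mice in every fit, *Cd81* was lost without control LFD mice 2 or 3 or control HFD mice 12 or 13, and *Slc38a4* was lost without 7 of the 10 mice and in limma. In knockout mice *Grb10* was lost without knockout LFD mouse 6, *Impact* without 5 of the 10 mice, and *H19*, *Airn* and *Sgce* without 6 or more of the 10. Alternative methods also lost *Cd81* in control mice and *Grb10*, *H19*, *Airn* and *Sgce* in knockout mice. Over both genotypes *Cdkn1c*, *Grb10*, *Igf2r*, *Airn*, *Slc38a4* and *Snrpn* were each lost under an alternative method. *Peg3*, *Cd81*, *Impact* and *Sgce* stayed called there under all of them. Markers of several cell types also moved with diet. White adipocyte markers (14 of 14 found, none under 0.5 TPM) summed to 19140 to 24970 TPM on LFD and 24460 to 35440 TPM on HFD in control mice, higher by 0.34 on the log2 scale (exact permutation p = 0.0238, adjusted over 40 0.106), with 11 of 14 higher, and by 0.53 in knockout mice (16970 to 22610 and 22420 to 33390 TPM, exact permutation p = 0.0159, adjusted 0.0907), with 10 of 14 higher. Endothelial markers (7 of 7 found) summed to 131 to 224 TPM and 211 to 329 TPM in control mice and to 164 to 216 and 205 to 326 TPM in knockout mice, higher by 0.60 and 0.44 (exact permutation p = 0.0238 and 0.0159, adjusted 0.106 and 0.0907), with 6 of 7 higher in each. Schwann cell markers (7 of 7 found) summed to 26.0 to 42.5 and 38.2 to 49.8 TPM in control mice and 33.5 to 38.4 and 39.3 to 54.6 TPM in knockout mice, higher by 0.42 and 0.39 (exact permutation p = 0.0159 and 0.00794, adjusted 0.0907), with 4 and 5 of 7 higher. *S100b* was the only Schwann cell marker called in either genotype, and the median log2 fold change of the list was −0.14 in control mice and 0.09 in knockout mice. Fat progenitor markers (16 of 16 found) summed to 2423 to 3278 and 3605 to 4034 TPM in knockout mice, higher by 0.42 (exact permutation p = 0.00794, adjusted 0.0907), with 11 of 16 higher. Of these edgeR called *Cd34*, *Pi16* and *Mfap5* up and the matrix genes *Col1a1* (−0.91) and *Fn1* (−0.76) down, and in control mice it called 3 of 16, all down. On HFD the progenitor markers were higher in knockout than in control mice by 0.21 (exact permutation p = 0.0159, adjusted 0.0907), with 11 of 16 higher and 0 called. Skeletal muscle fibre genes, given above beside *H19*, were called down on HFD in control mice for 15 of 25. Brown and beige adipocyte, mammary and skin epithelium, lymphocyte and macrophage sums did not reach an exact permutation p of 0.05 in any comparison. Single brown and beige markers did pass the edgeR test, 4 of 7 falling on HFD in control mice, among them *Cidea* (−2.58, edgeR adjusted p = 0.0216) and *Cox7a1* (−1.94, edgeR adjusted p = 0.0409), and 0 of 7 in knockout mice. The part of any cell type in the changes of imprinted genes was not tested.

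Between genotypes edgeR, with the filter and method of the report, called none of the imprinted genes, nor *Tmem120a* on either diet alone. On HFD 0 of 34 tested were called and 3 had an unadjusted p under 0.05 (*H19*, *Slc38a4* and *Rian*), where 0.00657% of all 15228 genes, which is 1 gene, were called and 4.66% had such a p. DESeq2 called 1 of them there, *H19*, among 100 genes. On LFD 0 of 32 were called and 3 had an unadjusted p under 0.05 (*Sfmbt2*, *Commd1* and *Snrpn*), beside 0.00636% of 15717 genes called and 5.11% with such a p, and DESeq2 called none among 17 genes. Over both diets 0 of 33 were called and 4 had an unadjusted p under 0.05 (*Rasgrf1*, *Snrpn*, *Cd81* and *Slc38a4*), beside 0.0385% of 15574 genes called and 7.44% with such a p, and DESeq2 called none among 32 genes. The difference of the genotype effects between diets gave 0 calls of 33 in edgeR, beside 0% of 15574 genes, with 2 at an unadjusted p under 0.05 (*H19* and *Cdkn1c*), as for 3.6% of all genes, and 1 in DESeq2, *H19*. The median log2 fold change of the imprinted genes was 0.01 on HFD and −0.07 on LFD, beside 0.01 and −0.02 for all genes tested. The comparisons share mice, knockout mice on HFD entering both the genotype comparison on that diet and the diet comparison in knockout mice.

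The other imprinted genes with the largest fitted changes between genotypes were low or spread widely within groups. *Rasgrf1*, an exchange factor that activates Ras, stood at 2.60, 2.61, 4.47, 4.40 and 0.535 TPM in control mice and at 1.20, 2.97, 2.10, 1.18 and 2.13 TPM in knockout mice on HFD (−0.88 ± 0.43 SE, edgeR adjusted p = 0.999). *Dlk1* stood at 0.345, 0.237, 0.676, 0 and 0.632 TPM and at 0.640, 1.34, 0.780, 0.397 and 0.783 TPM in these groups (0.95 ± 0.91 SE, edgeR adjusted p = 0.999). *Sfmbt2*, a Polycomb protein, stood on LFD at 0.179, 0.681, 0.469, 0.470 and 0.430 TPM in control mice and at 0.738, 0.662, 0.765, 0.807 and 1.25 TPM in knockout mice (0.82 ± 0.32 SE, edgeR adjusted p = 0.929). All but 1 of the knockout mice exceed all controls for *Sfmbt2*, and for *Rasgrf1* and *Dlk1* the groups overlap widely. On HFD the 5 non-coding RNAs tested, *H19*, *Meg3*, *Rian*, *Mirg* and *Airn*, had fitted changes above 0 in knockout mice, with a median of 0.43, beside 0.01 for all genes tested, and none was called. On LFD 4 of the 5 were above 0, with a median of 0.18, beside −0.02 for all genes tested. Of the 17 genes listed as read from the maternal copy 12 were above 0 on HFD, and of the 16 listed as paternal 6, with medians of 0.13 and −0.06. On LFD 8 of 17 and 7 of 14 were, with medians of −0.12 and −0.02. The median of all genes tested was 0.01 on HFD and −0.02 on LFD, and none of these imprinted genes was called. The share of all genes above 0 was not counted, so these directions are not a result about either parental copy or the non-coding RNAs. The paternal genes *Dlk1*, *Sfmbt2* and *Mkrn3* had HFD means under 0.5 TPM in control mice (0.378, 0.474 and 0.410) and above it in knockout mice (0.788, 0.915 and 0.690). They passed the minimum there through the knockout mice, as *Sfmbt2* did on LFD, and such a filter favours a rise.

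**Figure D4:**
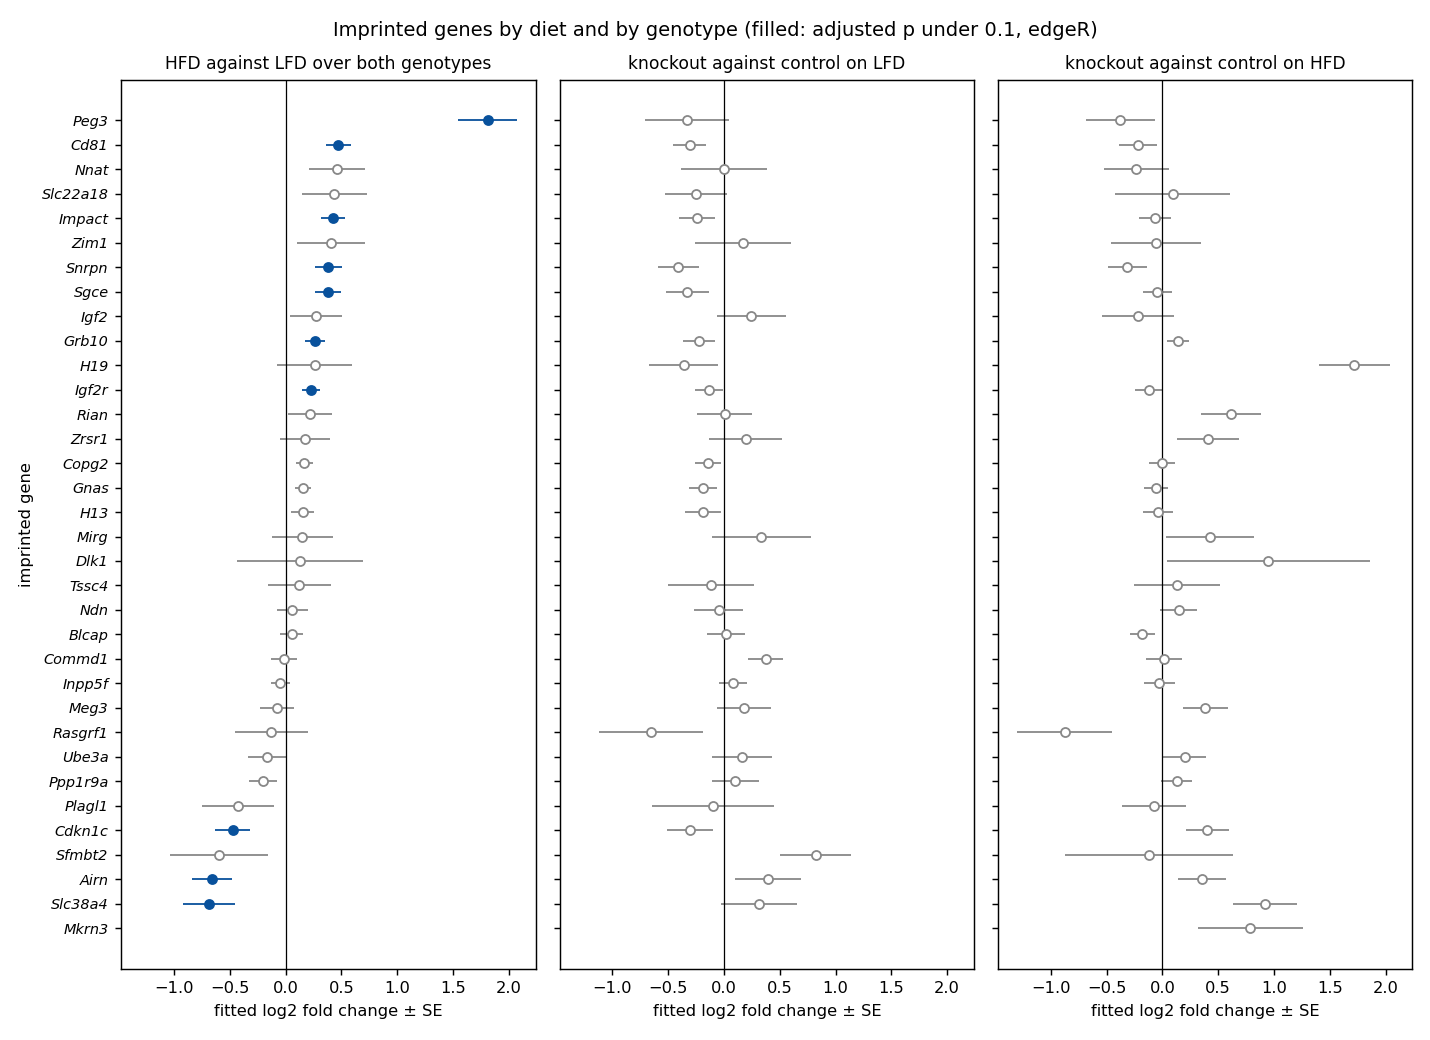
Fitted log2 fold change with its SE (point and bar) of each imprinted gene tested, for HFD against LFD over both genotypes (left) and for knockout against control mice on LFD (middle) and on HFD (right). Filled points passed an edgeR adjusted p under 0.1, 10 genes on the left with *Peg3* at 1.81, and none in the other panels, where *H19* on HFD at 1.72 is farthest from 0.

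Genes around the imprinted network were described from 3 further lists. Of 59 other imprinted genes, 33 were tested, and none was called between genotypes on either diet. Between diets 5 rose and 2 fell in control mice, and 5 rose and 1 fell in knockout mice, where 9.32% and 9.4% of all genes were called. *Mest*, a protein of the hydrolase family that marks expanding fat, rose by 3.10 ± 0.73 SE on the log2 scale in control mice (61.9 ± 67.4 TPM on LFD to 576 ± 115 TPM on HFD, SD, n = 5, edgeR adjusted p = 0.0333) and by 3.72 ± 0.61 SE in knockout mice (edgeR adjusted p = 0.00563). *Klf14*, a transcription factor, rose by 2.18 ± 0.65 SE and 2.94 ± 0.53 SE (edgeR adjusted p = 0.0782 and 0.00928), and *Atp10a*, a lipid flippase, by 0.97 ± 0.19 SE and 1.05 ± 0.22 SE (edgeR adjusted p = 0.0158 and 0.0179). *Peg3* and *Mest* were both higher on HFD in both genotypes. *Copg2*, which overlaps the *Mest* locus and is read from the maternal copy, stood between 23.2 and 27.4 TPM on LFD and between 31.3 and 37.5 TPM on HFD in control mice, and was called there by limma but not by edgeR.

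In the insulin-like growth factor axis, 13 of 18 genes were tested in control mice and 14 in knockout mice. Between diets 2 rose and 2 fell in control mice, and 0 rose and 5 fell in knockout mice, beside the same 9.32% and 9.4% of all genes. *Irs1*, the adaptor below the insulin and IGF receptors, fell by 1.23 ± 0.17 SE and 0.85 ± 0.17 SE on the log2 scale (edgeR adjusted p = 0.00421 and 0.015), and *Igf1r*, the receptor that Igf2 signals through, by 0.72 ± 0.22 SE and 1.17 ± 0.18 SE (edgeR adjusted p = 0.0825 and 0.00459). *Igf1*, the related growth factor, was at 109 ± 25.2 TPM in control mice on LFD against 1.31 ± 0.518 TPM for *Igf2* in the same mice. A broad list around imprint maintenance held 22 genes, among them also *Lin28a*, *Lin28b* and *Hmga2*. Between diets 18 of them were tested in control mice, where *Uhrf1* was the only one called (0.75 ± 0.24 SE, edgeR adjusted p = 0.0969). In knockout mice 19 were tested between diets, as between genotypes on each diet, and none was called. *Ctcf* had 23.0 to 36.1 TPM as group means.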

How the data were processed

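Total RNA depleted of ribosomal RNA was sequenced as read pairs from 20 iWAT samples. The estimated counts and TPM values per transcript were made by the authors with Salmon 0.13.1 on Ensembl transcripts of NCBIM37 (mm9) and deposited without normalization between libraries, and the submitters' notes also name STAR 2.5.3. GENCODE vM1 held 94334 of the 96533 deposited transcripts and was used to sum them into genes, and unmatched transcripts took 0.377% to 0.581% of the counts. A design that assumed TPM alone was replaced by edgeR 4.0.16 (quasi-likelihood, TMM) on rounded count sums, with limma 3.58.1 on log2(TPM + 1) or log2(TPM + 0.1) and DESeq2 1.42.0 as alternatives. A gene was tested where its mean in the compared libraries reached 0.5 TPM, and called at an adjusted p under 0.1. The SE printed with an edgeR change was derived from the change and its test statistic. Single values were tested by two-sided exact permutation, and correlations with 100000 permutations within groups. Imprinted genes named were *H19*, *Igf2*, all called ones and the 2 with the largest fitted rise and fall per pairwise comparison. The imprinted genes, the lists and the tests were chosen with earlier results of these data known. The fits were tested on simulated data. The labels give no batch. R 4.3.3 and Python 3.11.15 were used.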

Additional observations from a re-analysis of the deposited data

Results flagged for a closer look

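Each of the 16 named imprinted genes was examined in each of the 4 groups for a mouse far from the others, 64 tests of which chance would flag about 1 in 20, and 7 stood out by the gap to the nearest mouse of the group. Knockout LFD mouse 9 had the highest *Airn* (37.2 TPM) and *Slc38a4* (6.28 TPM) of its group, and knockout LFD mouse 10 the highest *Sfmbt2* (1.25 TPM) and *Sgce* (46.0 TPM). Knockout HFD mouse 18 had the highest *Airn* of its group (24.7 TPM), control HFD mouse 13 the highest *Nnat* (577 TPM) and control HFD mouse 15 the highest *Igf2* (3.10 TPM). The genotype difference in log2(TPM + 1) on HFD minus that on LFD was 1.47 for *H19* (exact permutation p adjusted over 3 tests = 0.0384) and 1.81 for the log2 ratio of *H19* to *Igf2* (exact permutation adjusted p = 0.027), each larger on HFD. As given above, these p refer to no genotype difference on either diet. The edgeR fit across all genes did not call this difference for *H19* (adjusted p = 0.976).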

How the results depend on the processing

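Changes are on the log2 scale. For results that changed their call or direction the cause was not tested, except that leaving out a mouse leaves fewer samples. Between genotypes on HFD no imprinted gene was called in the report, and 1 (*H19*) was called with no filter, DESeq2, edgeR's newer method and DESeq2 with length offsets. The newer method and DESeq2 with length offsets were added after seeing the data. The count was 0 to 1 without single mice (1 without knockout HFD mouse 21). In the genotype by diet difference DESeq2 gave 1 call and DESeq2 with length offsets 0. With length offsets edgeR called 2 imprinted genes between diets in knockout mice and 6 over both genotypes. Without single mice the calls between diets numbered 2 to 6 in control mice and 2 to 4 in knockout mice.

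Reversed values, none past a test, were *H19* between genotypes on LFD, 0.10 with length offsets, 0.046 and 0.040 in limma with a pseudocount of 1 and 0.1, 0.11 in DESeq2 with length offsets and −0.022 in TMM-scaled TPM, and *Igf2* between genotypes over both diets, −0.0087 with no filter, −0.018 with length offsets, −0.00347 in edgeR's newer method and −0.012 in DESeq2 with length offsets. The correlation of *H19* with *Igf2* was −0.077 in log2 counts per library total, and 1 correlation of *H19* passed with group means left in. In TMM-scaled TPM the fall of *H19* between diets in control mice (−0.52), the fat progenitor sum between genotypes on HFD (0.17) and the white adipocyte sum between diets in control mice (0.34) lost an exact permutation p under 0.05, and on LFD the knockout differences of the mammary (−0.053), macrophage (−0.071) and endothelium (−0.025) sums changed sign. With a pseudocount of 0.1 the embryonic muscle sum on HFD (1.11) reached it.

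Without single mice, the edgeR change of *Igf2* ran from −0.45 to 0.039 between genotypes on HFD, −0.18 to 0.26 between diets in knockout mice and −0.11 to 0.14 between genotypes over both diets. In the permutation tests *H19* ran from −0.24 to 0.23 between genotypes on LFD, −0.65 to −0.41 between diets in control mice and 0.71 to 1.24 in knockout mice, *Igf2* from 0.26 to 0.48 and −0.065 to 0.16 between diets in control and knockout mice, and the ratio from −0.34 to 0.10 between genotypes on LFD and 0.64 to 1.11 between diets in knockout mice. Correlations of *H19* past the adjusted threshold numbered 0 to 1. Marker sums between genotypes on HFD ran from 0.24 to 0.40 (embryonic muscle), 0.12 to 0.24 (progenitors), −0.13 to 0.015 (white adipocytes), −0.073 to 0.35 (mammary), −0.16 to 0.54 (lymphocytes) and −0.13 to 0.0013 (macrophages). On LFD they ran from −0.27 to 1.20 (muscle fibres), −0.27 to 0.091 (embryonic muscle), −0.32 to −0.21 (white adipocytes), −0.055 to 0.14 (mammary), −0.087 to 0.12 (macrophages) and −0.059 to 0.13 (endothelium). Between diets in control mice they ran from −2.50 to −1.04 (muscle fibres), −0.48 to −0.14 (embryonic muscle), −0.017 to 0.14 (progenitors), 0.27 to 0.40 (white adipocytes), −1.93 to −1.20 (brown adipocytes), −0.32 to 0.84 (lymphocytes), 0.094 to 0.23 (macrophages) and 0.49 to 0.69 (endothelium), and in knockout mice from −0.43 to 0.38 (brown adipocytes).

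Counts of all genes called depended on the tool. Between genotypes edgeR called 1 gene on HFD, 1 on LFD and 6 over both diets, and the highest counts, in DESeq2 with length offsets, were 106, 18 and 47. DESeq2 raised the calls between diets from 1427 to 2205 in control mice and from 1476 to 2247 in knockout mice, and single mice left out gave 780 to 1845 and 753 to 1355. No paired analysis was possible because the replicate numbers of the groups are not shared.

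Depth limits *Dlk1*, *Sfmbt2* and the genes under 0.5 TPM, of which several had libraries at 0 counts. With 5 mice a group, a p that misses a threshold does not show that values did not differ, and the parental copies, the cell types and the Cre transgene alone were not separated.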
